A study of Mus musculus with 12 samples.

Results

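Kcnk9, Vsnl1, Agtr1a and Dab2 are 4 genes of the zona glomerulosa, the outer zone of the adrenal cortex, and their expression was followed in adrenal tissue of male and female mice of 2 strains. They were chosen by name as genes of angiotensin reception, membrane potential, calcium sensing and zonal identity, and they are 4 of the 6986 genes that had a probeset with a single gene name. Each had 1 probeset, and all 4 passed the filter on low values (a group mean of at least 4 on the log2 scale), which left 4414 genes for testing. The study had named Kcnk9 and Vsnl1 among male-biased adrenal genes from these same arrays, so their direction between the sexes is not independent evidence here.

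Adrenals came from KK/HlJ mice (written KK/HIJ in the labels), an inbred model of obesity and type 2 diabetes, and from C57BL/6J mice, at 21 weeks of age by the labels. Both strains ate standard chow without a drug treatment, and had gone through insulin tolerance and behavioural tests before death. The 4 groups were KK/HlJ males (KK-M), KK/HlJ females (KK-F), C57BL/6J males (C57-M) and C57BL/6J females (C57-F). The RNA of all mice of a group was combined into 1 pool and each pool was applied to 3 Affymetrix Mouse Gene 2.0 ST arrays, giving 12 arrays. The 3 arrays of a group were therefore repeat measurements of 1 pool, and SDs and p-values below cover the spread between arrays and not the spread between mice.

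The zona glomerulosa makes aldosterone, the hormone that retains sodium. Angiotensin II binds the receptor encoded by Agtr1a, which acts through Gq proteins and phospholipase C, while background potassium channels such as TASK-3, encoded by Kcnk9, hold the membrane at a negative potential until angiotensin II or potassium depolarizes it. Calcium then enters through voltage-gated channels and raises transcription of Cyp11b2, aldosterone synthase. Vsnl1 encodes visinin-like 1, a calcium sensor of the neuronal calcium sensor family that is enriched in the zone, and Dab2 encodes an adaptor of clathrin-coated pits that marks the zone in rodents.

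Promoters were available from the RefSeq table (assembly GRCm38.p6, 250 bases before to 50 after an annotated start) for Vsnl1 and Dab2, the 2 genes of the set that fell in KK-F against C57-F. Each had 2 annotated starts, and the window richer in CpG is printed for each. Its CpG content is therefore high partly by this choice. The sequences are of the reference strain C57BL/6J, on the strand of the gene, with CpG dinucleotides in capitals. 
Vsnl1, chr12:11436529-11436828, minus strand: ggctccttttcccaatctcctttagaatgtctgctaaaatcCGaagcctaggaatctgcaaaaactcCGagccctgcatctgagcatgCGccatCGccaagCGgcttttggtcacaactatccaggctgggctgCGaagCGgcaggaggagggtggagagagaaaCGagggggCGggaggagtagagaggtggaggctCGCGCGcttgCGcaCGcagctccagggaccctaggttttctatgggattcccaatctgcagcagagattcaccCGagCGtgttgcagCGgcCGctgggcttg
Dab2, chr15:6386498-6386797, plus strand: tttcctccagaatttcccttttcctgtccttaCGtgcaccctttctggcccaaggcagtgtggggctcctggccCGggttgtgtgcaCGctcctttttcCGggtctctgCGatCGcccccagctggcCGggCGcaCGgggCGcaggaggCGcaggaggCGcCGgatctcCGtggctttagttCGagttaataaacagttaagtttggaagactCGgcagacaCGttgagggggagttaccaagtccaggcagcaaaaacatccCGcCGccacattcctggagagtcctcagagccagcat
The Vsnl1 window held 18 CpG at 58.7% GC and the Dab2 window held 19 CpG at 59.3% GC, against a median of 7 CpG and 52.7% GC over 32851 promoters. At least 18 CpG were found in 29.7% of all promoters. The second start of each gene was poorer, with 6 CpG for Vsnl1 and 2 for Dab2, both under the median of all promoters. Exact matches on both strands were looked for to AAAGGTCA, the NBRE bound by NR4A factors, to CAAGGTCA, the SF-1 site, to TGACGTCA, the full cAMP response element, and to its core TGACG, which the full site contains. None of these letters, nor the palindromic glucocorticoid or androgen element and the oestrogen element, lay in any of the 4 windows. Among all promoters the NBRE was present in 1.51%, the SF-1 site in 1.56%, the full cAMP element in 1.79% and the core in 20.8%. The glucocorticoid or androgen element was present in 0.00913% and the oestrogen element in 0.07%, so their absence from 4 windows tells little.

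Values are log2 expression made by robust multi-array averaging (RMA), so 1 unit is a doubling, and levels are compared between groups for 1 gene and never between genes. A gene was called changed at a fold of at least 1.4 and a limma p under 0.05 after Benjamini-Hochberg adjustment over all tested genes. Array medians lay between 3.88 and 3.99. Nearly all genes of the table lie on chromosomes 1 and 10 to 15, so the shares of genes called below refer to that part of the genome. The called genes were unevenly split by direction, and the split moved with scaling: 34.5% of those called in KK-M against C57-M were higher, and 49.5% after a renewed quantile normalization, while for KK-M against KK-F these shares were 38.6% and 61.4%. The comparisons share groups, so that a high or low KK-M pool, for example, enters both the comparison with C57-M and that with KK-F.

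Kcnk9, the potassium leak channel, was higher in males of both strains. Its values were 10.04, 10.1 and 10.12 on the C57-M arrays and 8.68, 8.62 and 8.65 on the C57-F arrays. The 3 KK-M arrays gave 10.2, 10.45 and 10.48, and the 3 KK-F arrays gave 9.06, 8.97 and 9.02. Every male array lay above every female array, and within each sex every KK/HlJ array lay above every C57BL/6J array. The difference between males and females was 1.36 ± 0.09 (SE, n = 3 arrays each) in KK/HlJ, a 2.57-fold excess (limma adjusted p = 2.2e-07), and 1.44 ± 0.09 in C57BL/6J, a 2.71-fold excess (limma adjusted p = 1.3e-07). In C57BL/6J this was the 13th largest difference of 4414 in size and the 7th among genes higher in males.

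Between strains Kcnk9 differed less. In males KK/HlJ exceeded C57BL/6J by 0.29 ± 0.09, a fold of 1.22 (limma adjusted p = 0.025), and in females by 0.36 ± 0.09, a fold of 1.29 (limma adjusted p = 0.0068). Both p-values passed the threshold and both folds stayed under 1.4, so neither difference was called. A renewed quantile normalization gave 0.47 in males, still not called, and 0.5 in females, which was called. The sex difference of the strains differed by -0.08 with a 95% interval from -0.34 to 0.19 (limma interaction adjusted p = 0.72). That interval leaves room for a modest difference of either sign. The spread was widest in KK-M (10.38 ± 0.16, SD, n = 3 arrays), where replicate 1 lay below the other two, against SDs of 0.03 to 0.04 in the other groups.

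Vsnl1, the calcium sensor, fell in male and female KK/HlJ mice and was lowest in KK-F. The C57-M arrays gave 9.44, 9.32 and 9.27 and the C57-F arrays 8.77, 8.68 and 8.77. The KK-M arrays gave 8.54, 8.61 and 8.6, and the KK-F arrays 6.45, 7.03 and 6.6. The KK-F arrays stood more than a doubling below any other array, and no groups overlapped, although the highest KK-M array (8.61) was close to the lowest C57-F array (8.68). KK-F was also the group with the widest spread for Vsnl1 (6.69 ± 0.3, SD, n = 3 arrays), through replicate 2.

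Against C57BL/6J, Vsnl1 was 2.05 ± 0.12 lower on the log2 scale in KK/HlJ females, a 4.14-fold deficit (log2 difference -2.05, limma adjusted p = 1.2e-07), and this was the 20th largest fall among the tested genes. In KK/HlJ males the deficit was 1.7-fold (log2 difference -0.76 ± 0.12, limma adjusted p = 0.00048). The sex difference was called in both strains, at 1.89 ± 0.12 or 3.71-fold in KK/HlJ (limma adjusted p = 2.4e-07) and at 0.6 ± 0.12 or 1.52-fold in C57BL/6J (limma adjusted p = 0.0025). Vsnl1 was the 1 gene of the 4 that was called for a strain difference depending on sex. Its interaction was 1.29 ± 0.18, with a 95% interval from 0.91 to 1.67 (limma adjusted p = 0.00039). Of all tested genes, 13.9% were called for the interaction, and 3.81% were called in the same direction.

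Agtr1a, the angiotensin II receptor, was highest in C57BL/6J males and lower in KK/HlJ mice. Its values were 10.47, 10.42 and 10.5 in C57-M and 10.05, 10.01 and 10.09 in C57-F. They were 9.82, 9.86 and 9.99 in KK-M and 9.83, 9.65 and 9.56 in KK-F. The C57-M arrays stood above all others, while the KK-M and KK-F arrays overlapped and the lowest C57-F array (10.01) barely cleared the highest KK-M array (9.99). The fall in KK-M against C57-M was called, at 1.49-fold (log2 difference -0.57 ± 0.09, limma adjusted p = 0.00032). After a renewed quantile normalization it was -0.43 and no longer called.

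The other comparisons of Agtr1a stayed under the fold of 1.4. In females the strain difference was -0.37 ± 0.09, a fold of 1.29 (limma adjusted p = 0.0065), and after the renewed quantile normalization it was -0.17 (limma adjusted p = 0.21). Males exceeded females by 0.41 ± 0.09 in C57BL/6J, a fold of 1.33 (limma adjusted p = 0.0034). In KK/HlJ the same difference was 0.21 with a 95% interval from 0.02 to 0.4 (limma adjusted p = 0.093), and 0.08 after that normalization. The strain difference of males and that of females were not shown to differ, with an interaction of -0.2 and an interval from -0.47 to 0.07 (limma adjusted p = 0.29).

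Dab2, the endocytic adaptor, was lower in KK/HlJ than in C57BL/6J and had the smallest range of the 4. The C57-M arrays gave 10.67, 10.65 and 10.63 and the C57-F arrays 10.68, 10.77 and 10.68. The KK-M arrays gave 10.35, 10.32 and 10.31 and the KK-F arrays 10.19, 10.17 and 10.18. All 6 KK/HlJ arrays lay below all 6 C57BL/6J arrays. The fall was called in females, at 1.44-fold (log2 difference -0.53 ± 0.07, limma adjusted p = 0.00011). In males it was 1.25-fold (log2 difference -0.32 ± 0.07, limma adjusted p = 0.0039) and was not called for its size. After a renewed quantile normalization these differences were -0.36 in females, no longer called, and -0.15 in males (limma adjusted p = 0.14).

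Between the sexes Dab2 differed little. KK-M exceeded KK-F by 0.14, with a 95% interval from -0.01 to 0.3 (limma adjusted p = 0.15), and C57-M differed from C57-F by -0.06, with an interval from -0.22 to 0.09 (limma adjusted p = 0.55). These intervals exclude a sex difference of 1.4-fold for this probeset within the spread between arrays. The interaction was 0.21 with an interval from -0.01 to 0.42 (limma adjusted p = 0.18).

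**Figure D1:**
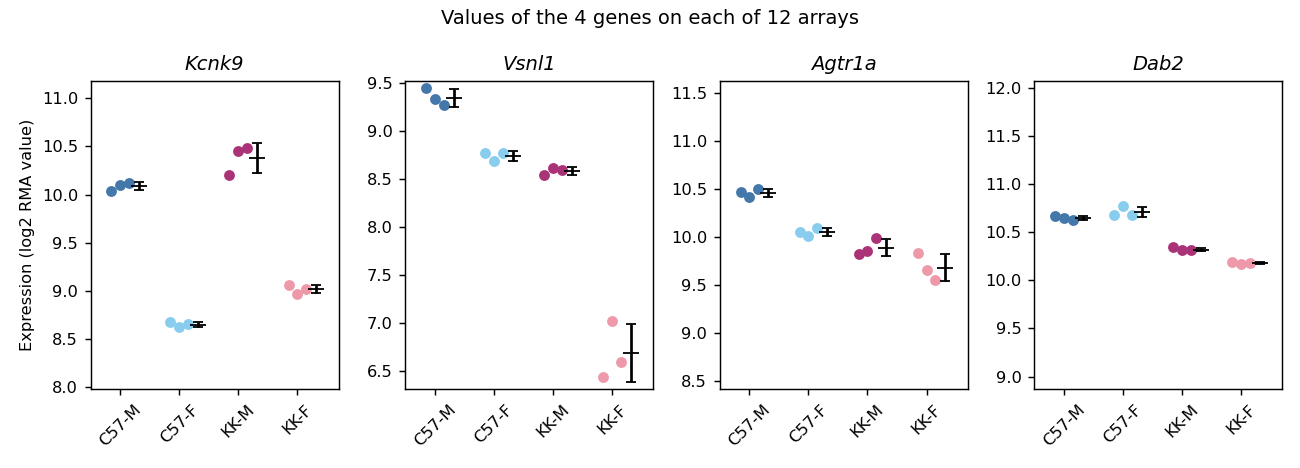
Log2 RMA values of Kcnk9, Vsnl1, Agtr1a and Dab2 (y axis, the same span in each panel but different limits) on the 3 arrays of each of 4 groups (x axis). Points are arrays of 1 RNA pool in the order of replicates 1 to 3, and the black marks are group means with SD. Kcnk9 separates by sex, the Vsnl1 values of KK-F lie between 6.45 and 7.03, and Dab2 separates by strain.

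Taken gene by gene, the order of the groups was not shared. Kcnk9 ran from KK-M through C57-M and KK-F to C57-F, with its largest step, 1.07, between C57-M and KK-F. Vsnl1 and Agtr1a both ran from C57-M through C57-F and KK-M to KK-F, with the largest step of Vsnl1, 1.89, at the bottom and that of Agtr1a, 0.41, at the top. Dab2 ran from C57-F through C57-M and KK-M to KK-F, and its upper pair differed by 0.06, about the SD of C57-F (0.05). The step from C57-F to KK-M, 0.16 for Vsnl1 and for Agtr1a, crosses both strain and sex and was not tested. Averaged over the strains, males exceeded females by 1.4 for Kcnk9, 1.25 for Vsnl1, 0.31 for Agtr1a and 0.04 for Dab2. Averaged over the sexes, KK/HlJ minus C57BL/6J was 0.33 for Kcnk9, -1.41 for Vsnl1, -0.47 for Agtr1a and -0.43 for Dab2.

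Read against all tested genes, 2 of the 4 were lower in KK-M against C57-M (Vsnl1 and Agtr1a), where 20.4% of genes were called, 7.05% higher and 13.4% lower. In KK-F against C57-F 2 were lower (Vsnl1 and Dab2), where 18.6% were called and 9.06% were called lower. In KK-M against KK-F 2 were higher (Kcnk9 and Vsnl1), against 18.8% called and 7.27% called higher. The same 2 genes were higher in C57-M against C57-F, where 7.07% of genes were called, 4.33% higher and 2.74% lower. The arrays of all 4 genes did not overlap in KK-M against C57-M, in KK-F against C57-F and in C57-M against C57-F, where this held for 47.6%, 48.4% and 32.2% of tested genes, and those of 3 genes did not in KK-M against KK-F, where it held for 46%. With 4 genes these counts describe the set and show no enrichment. The median difference of the 4 was -0.45 in both strain comparisons, 0.79 between the sexes of KK/HlJ and 0.51 between those of C57BL/6J, while the median over all tested genes lay between -0.07 and 0.03.

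**Figure D2:**
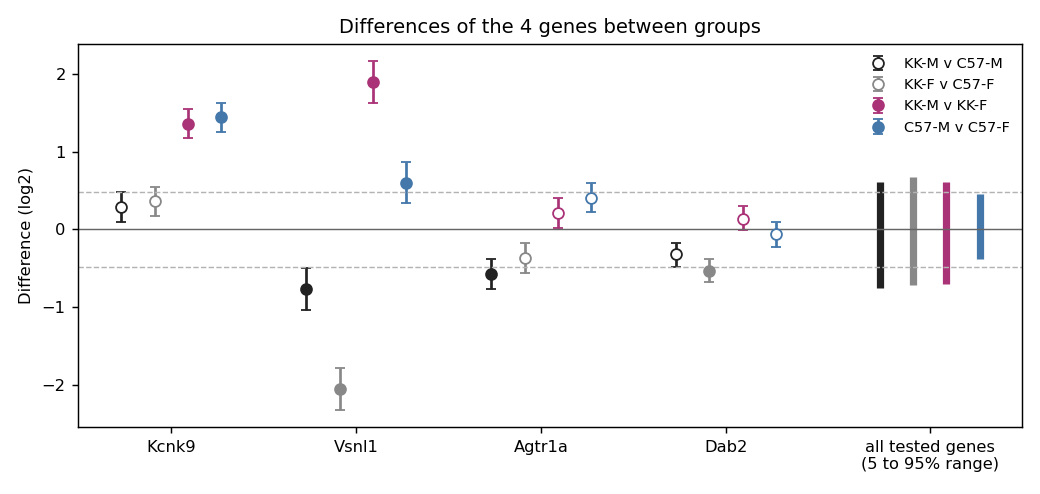
Differences of the 4 genes on the log2 scale (y axis) in 4 comparisons, each the first-named group minus the second, with 95% intervals from limma; filled points were called and open points were not. Dashed lines mark a fold of 1.4, and the bars at the right give the range from the 5th to the 95th percentile of all 4414 tested genes. The Kcnk9 differences between the sexes, 1.36 and 1.44, and the Vsnl1 differences of -2.05, 1.89 and 0.6 lie outside those ranges. The Vsnl1 difference of -0.76 in KK-M against C57-M lies at the edge of its range, -0.75.

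Across the 12 arrays, the Pearson correlation of log2 values was 0.824 between Vsnl1 and Agtr1a, 0.801 between Vsnl1 and Dab2 and 0.768 between Agtr1a and Dab2. Kcnk9 correlated at 0.434 with Vsnl1, 0.345 with Agtr1a and -0.142 with Dab2. These are descriptions, since the 12 arrays hold only 4 pools and share their normalization. Cyp11b2, the enzyme at the end of the pathway, followed Kcnk9 most closely (0.876), then Vsnl1 (0.779), Agtr1a (0.627) and Dab2 (0.3).

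Cyp11b2 was higher in males, by 1 ± 0.09 in KK/HlJ (2-fold, limma adjusted p = 5e-06) and by 0.85 ± 0.09 in C57BL/6J (1.8-fold, limma adjusted p = 2e-05). Between strains it differed by -0.13 in males (limma adjusted p = 0.34) and by -0.28 in females (limma adjusted p = 0.039), and neither was called. It was the only one of 8 listed zone markers that passed the filter, 3 being measured, with Nefm and Oprk1 under it. Cyp11b1, which makes corticosterone in the inner zone, was called in none of the 4 comparisons, with differences from -0.36 to -0.01. A rise in males was thus called in both strains for Kcnk9, Vsnl1 and Cyp11b2 and in neither for Agtr1a and Dab2. Agtr1a lay between, with males higher by 0.41 in C57BL/6J (limma adjusted p = 0.0034) and by 0.21 in KK/HlJ (limma adjusted p = 0.093). In whole adrenal tissue fewer cells of the zone and less RNA per cell cannot be told apart.

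Other genes of the pathway were taken from 8 lists of 153 genes, of which 55 were measured and 50 tested. In KK-M against C57-M 6 rose and 4 fell, 20% of those tested, and in KK-F against C57-F 8 rose and 4 fell, 24%. In KK-M against KK-F 9 were higher and 2 lower, 22%, and in C57-M against C57-F 9 were higher and none lower, 18%. The share called was thus near that of all genes in 3 comparisons, and above the 7.07% of all genes in C57-M against C57-F, a difference that was not tested. The median difference over the 50 genes lay between -0.11 and 0.11, while medians of single lists ran from -0.33 for calcium sensors in KK-F against C57-F to 0.97 for the angiotensin list in KK-M against C57-M, which rested on 1 gene.

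Upstream of Agtr1a, Ace was the only tested gene of 12 listed for the angiotensin system. Ace, the enzyme that makes angiotensin II, was higher in KK/HlJ mice, by 0.97 ± 0.15 in males (1.96-fold, limma adjusted p = 0.00035) and by 0.83 ± 0.15 in females (1.77-fold, limma adjusted p = 0.0011). Agtr1a differed in the opposite direction between the strains, at -0.57 in males and -0.37 in females, as given above. Downstream, none of 11 tested genes of Gq and phospholipase C signalling was called in KK-M against C57-M and 1 in KK-F against C57-F. That gene was Prkcd, a protein kinase C, which rose by 0.71 in KK-F against C57-F and was lower in KK-M against KK-F (log2 difference -0.95). Rgs5, a regulator of G protein signalling, was 0.71 higher in the males of KK/HlJ, and Dgka, a diacylglycerol kinase, was 0.52 higher in the males of C57BL/6J.

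Beside Kcnk9, 9 genes of potassium channels and of the sodium pump were tested. Kcnk5, the related channel TASK-2, ran against Kcnk9 between the sexes of KK/HlJ: males had less of it (log2 difference -1.89 ± 0.13, 3.71-fold, limma adjusted p = 4.8e-07), where Kcnk9 was higher by 1.36. Kcnk2, the channel TREK-1, rose in KK/HlJ by 0.85 in males and by 1.48 in females, and its sex differences of -0.35 and 0.29 were not called. The pump subunit Atp1b2 was higher in males by 0.68 and 0.66, the same direction as Kcnk9 in both strains. Another, Atp1b1, was 0.58 higher in C57BL/6J males than females.

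Of the genes for calcium entry and export, 5 were tested. Cacna1d, an L-type channel of the adrenal cortex, was higher in KK/HlJ by 0.56 in males and 0.79 in females and higher in C57-M than in C57-F by 0.59. Cacna1s and Cacnb1, the pore and the beta subunit of the skeletal muscle channel, exceeded their C57-M values in KK-M by 1.19 and 0.76, and in the female strain comparison their differences were -0.03 (not called) and 0.51. The KK-M pool also carried skeletal muscle markers: all 9 tested were higher than in C57-M, with a mean level of 6.41 to 6.65 on its arrays against 3.69 to 4.02 in the other groups. The part of these markers in the channel values was not tested.

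Among calcium sensors, where Vsnl1 belongs, 7 other genes were tested. Its relative Hpcal1 was lower in KK-F than in C57-F (log2 difference -0.63 ± 0.2, limma adjusted p = 0.027), although the arrays of these groups overlapped. It was 0.71 higher in KK-M against KK-F, and both differences had the direction of Vsnl1 at a smaller size. In KK-M against C57-M and in C57-M against C57-F, Hpcal1 differed by 0.14 and -0.07, neither called. There Vsnl1 had the opposite signs, at -0.76 and 0.6. Ncald, another relative, was called in no comparison, with differences from -0.21 to 0.32. The catalytic calcineurin subunits Ppp3cb and Ppp3cc fell in KK/HlJ males (log2 differences -0.81 and -0.65), and Ppp3cb also in females (-0.5). Camk2b, a calmodulin kinase, was 0.55 higher in males of KK/HlJ.

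Of the transcription factors that act on Cyp11b2, 4 were tested. Nr4a1, the factor of the NBRE, was lower in KK-F than in C57-F (log2 difference -0.49 ± 0.07, limma adjusted p = 0.00025), and Fos was 0.65 higher in males of KK/HlJ. Creb1 and Nr2f1 were called in no comparison. None of the 6 tested genes of clathrin endocytosis was called between the strains, where 20.4% of all tested genes were called in males and 18.6% in females. Dab2 was called lower in females only. In males Dab2 (-0.32), Numb (-0.35) and Fcho2 (-0.42) all stayed under the fold of 1.4. The median difference of the 6 was -0.2 in males and -0.03 in females. Cltb, a clathrin light chain, was higher in males by 0.81 and 0.56, and Numb, an adaptor with the same kind of phosphotyrosine-binding domain as Dab2, was called in no comparison. Of 7 Wnt and hedgehog genes, Lgr5, a receptor for R-spondins, was higher in KK/HlJ by 1.01 in males and 1.08 in females, and its ligand gene Rspo3 fell in KK/HlJ males (log2 difference -0.75). Fzd6, a Wnt receptor, was lower in KK-F than in C57-F (log2 difference -0.52).

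**Figure D3:**
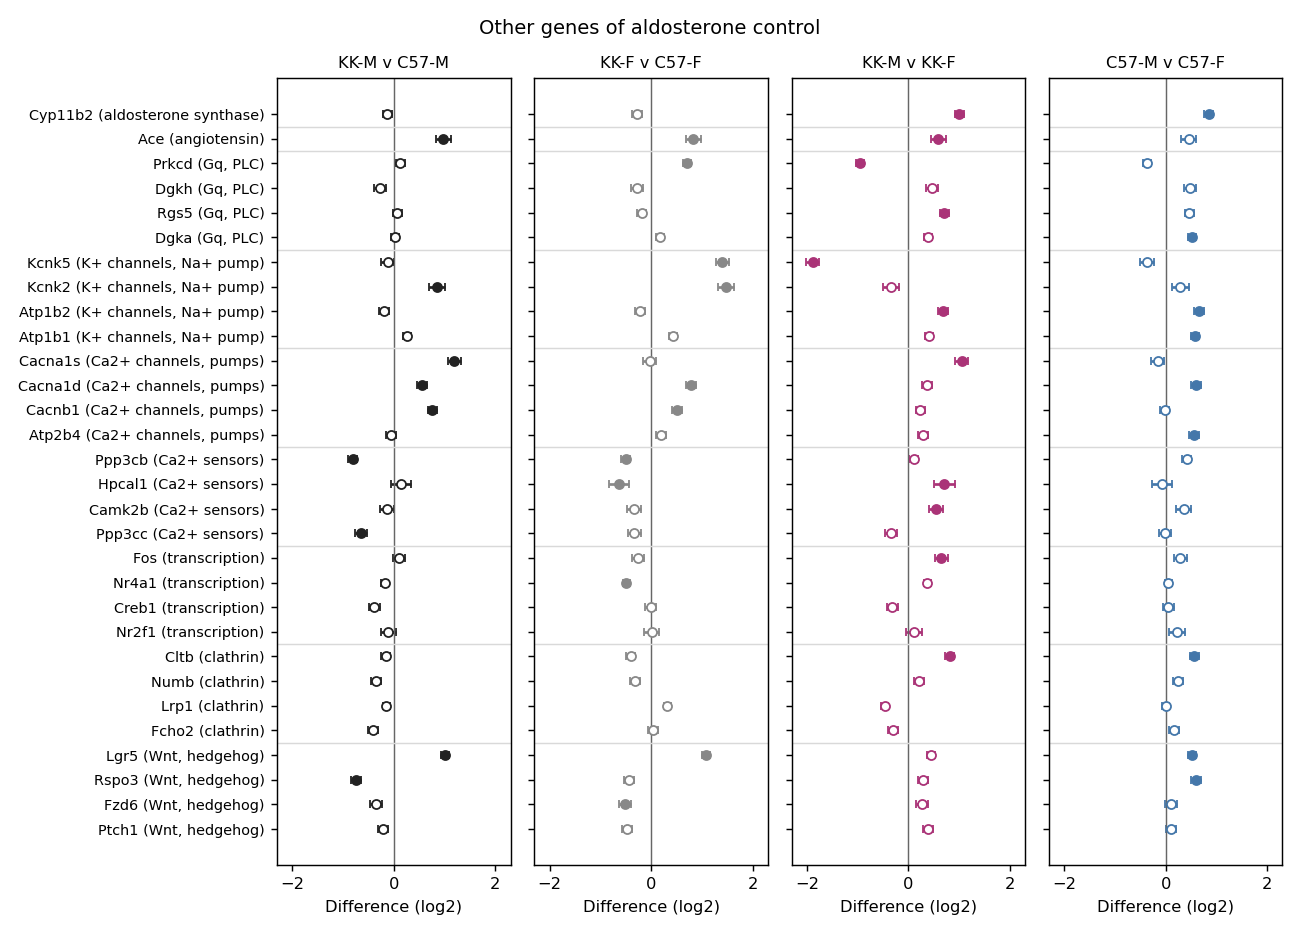
Log2 differences with SE (x axis) of Cyp11b2 and of up to 4 genes of each pathway list (y axis, list in brackets) in 4 comparisons; filled points were called. Kcnk5 lies at -1.89 in KK-M against KK-F, and Lgr5 lies at 1.01 and 1.08 in the strain comparisons.

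Among 1839 tested genes with a range of group means of at least 1.4-fold, without clone names and small RNAs, those with the pattern most like each gene were found by the Pearson correlation over the 12 arrays. For Kcnk9 they were Dgka (0.974), Dpysl2 (0.973), Itpk1 (0.972) and Inha (0.968), and those most unlike it were Arrdc3 (-0.983) and Lama4 (-0.984). Itpk1, an inositol phosphate kinase, had mean levels of 6.37 in C57-M, 5.52 in C57-F, 6.56 in KK-M and 5.79 in KK-F, the order of Kcnk9. For Vsnl1 the genes most like it were Rpl21 (0.993), Polr2f (0.987), Ly6d (0.984) and Tspan31 (0.984), and Prox1 ran most against it (-0.993). Ly6d, a surface protein, averaged 10.82, 9.79, 9.97 and 6.83 in the same groups, so that it too was lowest in KK-F. Rpl21 has many near-identical copies in the genome, and its probeset may measure several.

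Agtr1a was followed most closely by H2az2 (0.962), Rhoj (0.958), Cstb (0.955) and Cpm (0.95), of which Cpm, a membrane carboxypeptidase, averaged 7.06 in C57-M, 6.24 in C57-F, 6.05 in KK-M and 5.72 in KK-F. Pim3 (-0.923) and Tbrg4 (-0.935) ran most against Agtr1a. Dab2 was followed most closely by Apoa2 (0.982), Gpd1 (0.982), Sft2d2 (0.981) and Cyc1 (0.981), and Tpm3 (-0.975) and Hspa2 (-0.979) ran most against it. Apoa2, an apolipoprotein of hepatocytes, averaged 8.62 and 8.99 in the C57BL/6J groups and 6.22 and 5.62 in KK-M and KK-F. The arrays are 4 pools, so these correlations mostly rank how closely 4 means match, and many genes can share 1 such order.

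In the gene order of the reference, the nearest tested genes to Kcnk9 on chromosome 15 were Mir30d and Khdrbs3 on one side and Trappc9 and Peg13 on the other. In mouse brain Kcnk9, Trappc9 and Peg13 belong to 1 imprinted domain. Trappc9 was higher in KK/HlJ by 0.56 in males and 0.57 in females, and higher in females by sizes that were not called (-0.36 and -0.35, males minus females). Peg13 was higher in C57-M than in C57-F by 0.61, where Kcnk9 was higher by 1.44, and differed by 0.46 between the sexes of KK/HlJ, which was not called. Khdrbs3 was higher in C57-M than in C57-F by 0.83. None of these 4 neighbours was called in KK-M against KK-F, where Kcnk9 was 2.57-fold higher. Of all tested genes 18.8% were called there, so a count over 4 neighbours tells little.

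Around Vsnl1 on chromosome 12, none of the 4 nearest tested genes (Kcns3, Smc6, Cyria and Mycn) was called in KK-F against C57-F, where Vsnl1 fell 4.14-fold. Of all tested genes 18.6% were called in that comparison, so this count too tells little. In KK-M against C57-M, Cyria was called lower (log2 difference -0.67, limma adjusted p = 0.00026), as Vsnl1 was (-0.76). In KK-M against KK-F, Smc6 and Cyria were lower (log2 differences -0.52 and -0.54) and Vsnl1 was higher. Around Agtr1a on chromosome 13, Dusp22 was called in KK-M against C57-M (log2 difference -0.49), the direction of Agtr1a, and none of the 4 neighbours was called in KK-F against C57-F. Around Dab2 on chromosome 15, C9, a complement gene, was lower in KK/HlJ in males (log2 difference -1.05) and in females (-0.57), and Fyb was lower in males (-0.54). The other pair, Ttc33 and Ptger4, was called in no comparison.

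Markers of other cell types differed between the pools and are given here beside the 4 genes. X-zone markers, 2 tested of 3 listed, had a mean log2 level of 10.36 to 10.44 in KK-F, 7.75 to 7.89 in C57-F, 5.23 to 6.07 in KK-M and 4.55 to 4.8 in C57-M. The group means of Vsnl1, Agtr1a and Dab2 were all lowest in KK-F. Capsule and stroma markers, 12 of 15 tested, had a mean level from 6.45 to 6.5 in KK-F and from 6.83 to 7.13 in the other groups. They did not move as 1: in KK-F against C57-F 5 were called lower and 1 higher (Col6a1, 0.98). In KK-M against KK-F 6 were called higher and 2 lower. Adipocyte markers, 6 tested of 13 listed, were all lower in KK-F than in C57-F, at 6.02 to 6.09 against 7.01 to 7.11, as Vsnl1 and Dab2 were. Agtr1a was lower there too, by a size that was not called (log2 difference -0.37). In KK-M against C57-M, where Vsnl1 and Agtr1a were called lower, 4 of these 6 markers were called lower. The tested ones were Slc2a4, Trarg1, Gpd1, Pnpla3, Letmd1 and Acot2, and Gpd1 was also named above as most like Dab2. Adipoq, Plin1, Lep and Fabp4 were not analysed here, so the amount of fat tissue is not shown.

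Hepatocyte markers, 8 tested, stood at 6.86 to 7.69 in the C57BL/6J groups and at 4.02 to 5.19 in the KK/HlJ groups. This was the direction of Vsnl1, Agtr1a and Dab2, and 7 of the 8 markers were lower in each strain comparison. Macrophages also carry Dab2, and the mean of their 5 tested markers stood at 7.66 to 7.82 in C57-M and at 6.79 to 7.16 in the other groups. Single macrophage markers went both ways. In KK-F against C57-F, where Dab2 was called lower, 3 of them were called higher and 1 lower. In KK-M against C57-M 3 were called lower and none higher. Vessel smooth muscle carries Agtr1a, and 3 of 14 vessel markers were tested, without the smooth muscle genes Acta2 and Myh11, which were not analysed here. In KK-M against C57-M, Des, which skeletal muscle also expresses, was 2.26 higher, while Pecam1 of the endothelium differed by -0.36 and Rgs5 of pericytes by 0.07, neither of them called. Chromaffin cell markers, 8 tested of 15 listed, stood at 8 to 8.44 in C57BL/6J and at 8.83 to 9.3 in KK/HlJ. The part of these cell types in the values of the 4 genes was not tested.

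**Figure D4:**
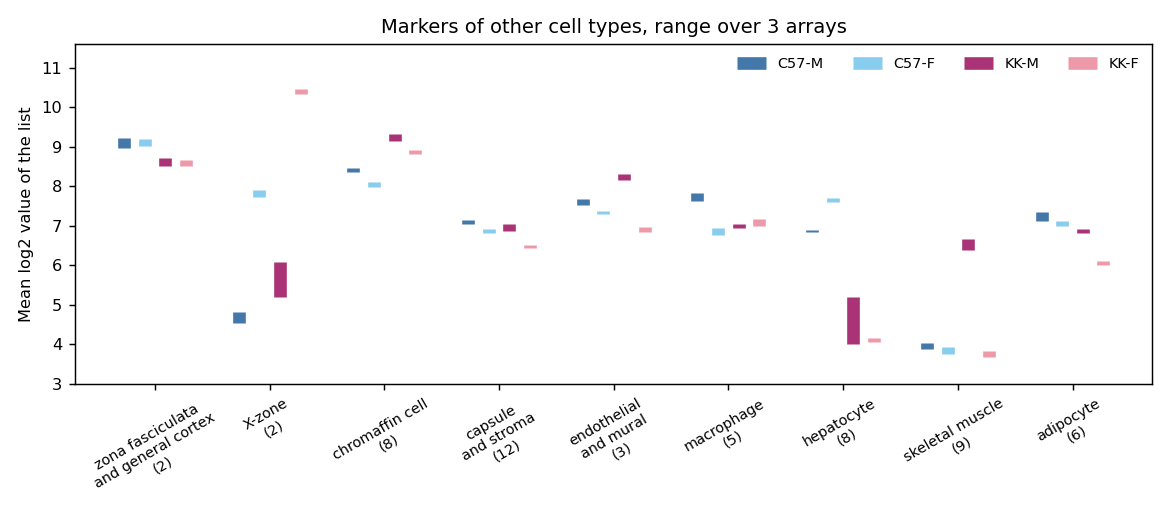
Mean log2 level of the tested markers of 9 other cell types or zones (x axis, number of genes in brackets), shown as the range over the 3 arrays of each group, slightly widened so that narrow ranges show. X-zone markers lie highest in KK-F, hepatocyte markers lie lower in KK/HlJ, and skeletal muscle markers lie at 6.41 to 6.65 in KK-M.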

How the data were processed

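Adrenal RNA of 4 groups of mice, 1 pool a group, was measured on 3 Affymetrix Mouse Gene 2.0 ST arrays a pool. The authors deposited log2 values per probeset, made with Partek by RMA (background correction, quantile normalization and probe summarization); they were not normalized again. The genome build behind the probesets is not given in the sources used here. The table analysed held 16378 probesets, of which 7358 had 1 gene in the platform annotation, 456 several and 8564 none here; 7310 matched the RefSeq table (GRCm38.p6) by gene ID. Arrays hold no read depth, so their number limits the precision.

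The brightest probeset of each gene was kept, and genes with a group mean of at least 4 were tested with limma 3.58.1 in R 4.3.3, with 1 mean per group over 12 arrays. P-values were adjusted jointly over the 4 comparisons by Benjamini-Hochberg, and separately for the interaction. The fit was tested on simulated data. Genes were named by fixed rules: the 4 genes, up to 4 genes of each list with the largest range of group means, the 4 most and 2 least correlated genes, and the 2 nearest tested genes on each side. The 4 genes and the lists were chosen with earlier results of these data known. Alternatives were other fits, filters, folds, scalings, the replicate block and each array left out.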

Additional observations from a re-analysis of the deposited data

Results flagged for a closer look

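Among 97 tested genes (the 4 genes, the pathway lists, the adrenal genes Cyp11b1 and Cyp11b2, the correlated genes, the neighbours, and Des and Pecam1, chosen after their values were seen), 17 had a strain difference that differed between males and females in limma's interaction test, where 13.9% of all tested genes were called; values are the difference in males minus that in females, on the log2 scale. Vsnl1 had the value 1.29 (adjusted p = 0.00039), with strain differences of -0.76 in males and -2.05 in females. Of the genes most like or unlike Vsnl1, Ly6d had 2.11, Rpl21 0.72, Polr2f 0.68 and Prox1 -0.57, which their choice by likeness to Vsnl1 partly fixes. The genes resembling Agtr1a and Dab2 included Cpm with -0.49, Apoa2 with 0.96 and Gpd1 with 0.56.

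Among pathway genes, the potassium channel Kcnk5 had -1.52, the calcium channel gene Cacna1s 1.22, the kinase Prkcd -0.58 and the calcium pump Atp2b1 -0.49. Neighbours of the 4 genes gave -0.71 for Mir30d and -0.57 for Khdrbs3 beside Kcnk9, -0.69 for Smc6 beside Vsnl1 and -0.66 for Dusp22 beside Agtr1a. Des, a marker of mural and muscle cells, had 2.94. Of the 54 tested genes of the lists of other cell types, 21 were called in the direction of Vsnl1 and 6 in the opposite direction. Of all tested genes, 3.81% were called in that direction and 10.1% in the opposite one. The 21 included all 9 skeletal muscle markers, whose mean level was high in KK-M and not low in KK-F alone, and 5 hepatocyte markers. A shared sign of the interaction is therefore not a shared pattern over the groups.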

How the results depend on the processing

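Of 645 values over 25 results and their alternatives, 623 kept their direction and their side of the threshold, or stayed within 1.5 times for a count of called genes. Of the rest, 11 lost the call or were counts that fell further, 10 gained it or were counts that rose further, and 1 reversed. At a fold of 1.2, the genes called numbered 1555 in KK-M v C57-M, 1422 in KK-F v C57-F, 1486 in KK-M v KK-F and 695 in C57-M v C57-F, and calls were gained by Kcnk9 (0.29 in males, 0.36 in females) and by Dab2 in males (-0.32) between strains, and by Agtr1a between strains in females (-0.37) and between sexes in C57BL/6J (0.41). At a fold of 2 the counts were 170, 184, 155 and 34, with 131 for the interaction, and calls were lost by Vsnl1 (-0.76) and Agtr1a (-0.57) between strains in males, by Dab2 in females (-0.53) and by Vsnl1 between sexes in C57BL/6J (0.6). A renewed quantile normalization moved the median of all genes by 0.12 in KK-M v KK-F and 0.13 in the interaction; there Agtr1a in KK-M v C57-M was -0.43 and Dab2 in KK-F v C57-F was -0.36, both no longer called, and Kcnk9 in KK-F v C57-F was 0.5 and called. Under it Dab2 in KK-M v C57-M was -0.15 and Agtr1a in KK-F v C57-F was -0.17, with adjusted p of 0.14 and 0.21. It raised the share of higher genes among interaction calls from 27.5% to 53.2%. The causes were not tested.

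With 1 array left out in turn, the counts ranged from 842 to 1001, 812 to 849, 788 to 905, 300 to 340 and, for the interaction, 477 to 683. The interaction of Kcnk9 ranged from -0.13 to 0.01, and reversed to 0.01 (adjusted p = 0.95) without KK-M replicate 1; no call of the 4 genes changed. Replicate numbers did not pair the arrays: correlations of deviations ran from -0.1 to 0.12, 2 of 12 over 0.1. With the replicate number as a block, 908, 824, 827, 310 and 622 genes were called and no call of the 4 genes changed. Single pools set the limit: no value here measures the spread between mice.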
